A study of Mus musculus with 3 samples.

Results

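B lineage cells of the vomeronasal organ (VNO) were examined in 3 single-cell RNA-seq libraries. They were chosen by their own transcripts: a barcode was a member when it held at least 2 unique molecular identifiers (UMIs) of Cd79a and at least 5 of Cd79a and Cd79b together, the genes of the signalling chains of the B cell receptor. The complement genes C1qa, C1qb and C1qc, which are typical of macrophages, could take at most 0.1% of its UMIs. Of 13353 kept cells, 293 were B lineage cells. They were 82 of 4305 kept cells in the P10 control (1.90%, 95% interval 1.52 to 2.36%), 85 of 3741 in the P10 mutant (2.27%, 1.82 to 2.80%) and 126 of 5307 in the 3-month mutant (2.37%, 1.98 to 2.82%).

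The VNO is a chemosensory organ of the nasal septum, and the libraries came from male mice of a C57 BL/6J 129P2/OlaHsd mixed background, taken at postnatal day 10 (P10) or at 3 months. The control was heterozygous for OMPCre, in which the olfactory marker protein locus drives the Cre recombinase. Both mutants were double heterozygous (OMPCreR26AP2e), so that Cre also turns on the transcription factor AP-2ε, encoded by Tfap2e, from the R26 locus. All animals thus carried OMPCre, and the driver acts in neurons that express Omp. Whether Cre acted in B lineage cells was not tested. Tfap2e held 4, 11 and 14 UMIs in the B lineage cells of the P10 control, P10 mutant and 3-month mutant (3.48, 6.68 and 4.82 counts scaled to CPM, the UMIs of a gene per 1000000 UMIs of the same cells), against 9.83, 166.6 and 54.8 CPM in the other kept cells. There was 1 library per group, and how many animals entered each is not given in the sources used here. At P10 the genotype cannot be told apart from the library, nor can age between the mutants. No test between groups was possible, and every interval in brackets is a 95% interval that covers counting error only.

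B cells are made in the bone marrow, and before birth in the liver, by a stepwise assembly of antibody genes. A precursor first joins the segments of a heavy chain, with the recombinase of Rag1 and Rag2 and the terminal transferase Dntt, and tests that chain at the surface with a surrogate light chain made from Igll1 and Vpreb1 or Vpreb2. Cells that pass divide, stop dividing, join a kappa or lambda light chain and leave as immature B cells with IgM. Mature B cells present antigen on MHC class II, and after activation some switch from IgM to IgG or IgA and become plasma cells, which give over much of their RNA to antibody.

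The surrogate light chain genes Igll1, Vpreb1 and Vpreb2, on which the division of the P10 cells rests, are printed here by the 250 bases before their start sites. Vpreb3, a related gene that the division did not use, is printed beside them. The sequences are from RefSeq for GRCm38.p6, on the strand of the gene. Igll1 lies at chr16:16863986-16864235 (minus strand), Vpreb1 at chr16:16869256-16869505 (minus), Vpreb2 at chr16:17980315-17980564 (plus) and Vpreb3 at chr10:75948050-75948299 (plus), each range being that of the printed bases. Capitals mark matches on either strand to CAGNTG, a form of the E box bound by basic helix-loop-helix factors such as that encoded by Tcf3. Of 32851 promoters of the same length, 14723 (44.8%) hold such a match, so that one in a promoter is common, and a match is not a measured binding site.
Igll1: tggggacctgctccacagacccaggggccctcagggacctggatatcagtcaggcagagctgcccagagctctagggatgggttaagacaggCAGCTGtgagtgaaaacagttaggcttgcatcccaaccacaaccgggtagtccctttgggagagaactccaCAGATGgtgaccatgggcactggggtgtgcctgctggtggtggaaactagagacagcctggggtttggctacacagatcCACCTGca
Vpreb1: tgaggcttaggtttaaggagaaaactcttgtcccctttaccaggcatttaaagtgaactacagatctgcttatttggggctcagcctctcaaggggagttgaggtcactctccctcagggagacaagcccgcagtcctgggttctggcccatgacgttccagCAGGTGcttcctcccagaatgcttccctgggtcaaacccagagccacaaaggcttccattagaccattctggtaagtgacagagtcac
Vpreb2: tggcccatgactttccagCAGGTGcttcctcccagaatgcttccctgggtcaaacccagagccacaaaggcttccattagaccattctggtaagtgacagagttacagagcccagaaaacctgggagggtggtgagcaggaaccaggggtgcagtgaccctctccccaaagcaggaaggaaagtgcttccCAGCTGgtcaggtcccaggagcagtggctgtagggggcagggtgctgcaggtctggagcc
Vpreb3: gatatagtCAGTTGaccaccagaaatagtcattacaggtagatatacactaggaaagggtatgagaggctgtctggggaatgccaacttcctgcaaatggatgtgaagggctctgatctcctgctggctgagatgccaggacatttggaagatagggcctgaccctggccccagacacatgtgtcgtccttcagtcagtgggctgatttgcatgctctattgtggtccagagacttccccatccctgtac
The RefSeq start sites of Igll1 and Vpreb1 are 5270 bases apart. In the GENCODE M21 annotation the genes Vpreb1 (chr16:16868403-16870843), Vpreb2 (chr16:17980428-17981273) and Vpreb3 (chr10:75943057-75949657) overlap the printed bases, so that their start sites depend on the annotation. Vpreb1 and Vpreb2 are close copies of each other, so that reads may be split between them and their separate levels are uncertain.

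The files held 8202, 8864 and 10293 barcodes with 83870584, 80760046 and 70074800 UMIs in the P10 control, P10 mutant and 3-month mutant. Depth differed between the libraries in B lineage cells: the median was 6341, 10013 and 23933.5 UMIs per cell, against 11670, 11374.5 and 7962 in the other kept cells. Mitochondrial genes gave a median of 5.51%, 6.06% and 2.06% of their UMIs. Pairs of libraries shared 21 to 30 barcodes, but no barcode was a B lineage cell in more than 1 library. At the limit of 5 UMIs of Cd79a and Cd79b, 0, 0 and 4 cells lay just inside and 1, 0 and 4 cells with 4 UMIs lay just outside. A further 15, 23 and 1 barcodes would have been members but for over 10% mitochondrial UMIs.

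In GRCm38 with the GENCODE M21 annotation, Cd79a lies at chr7:24897381-24902197, Cd79b at chr11:106311341-106314762 and Ms4a1 at chr19:11249675-11266241. Ighm (chr12:113418558-113422730) and Igha (chr12:113254830-113260236) are constant genes of the heavy chain locus, and Jchain lies at chr5:88519809-88527891. The label was checked against B lineage markers that the rule did not use. Ighm, the constant region of IgM, was found in 82 of 82 cells of the P10 control, 85 of 85 of the P10 mutant and 37 of 126 at 3 months. Of the other kept cells, with those rich in Jchain set aside, 8.69%, 10.9% and 14.2% had a UMI of Ighm, so that it is a weaker check at 3 months. Pax5, which encodes a transcription factor that holds cells in the B lineage, was found in 72.0%, 81.2% and 15.9% of members, against at most 0.17% of the other kept cells of any library. Ms4a1, which encodes CD20, was found in 37.8%, 30.6% and 31.7%. The low share of Pax5 at 3 months goes with the antibody-secreting cells described further on, in which Pax5 held 0 UMIs. Markers of other cell types, at 5 UMIs and 0.5% of a cell's UMIs or more, were carried by 3, 7 and 4 members. Of 14 marker lists, epithelial genes gave 599.5, 795.4 and 260.4 CPM over the members, gland genes 144.4, 39.5 and 846.6 CPM and fibroblast genes 274.9, 214.5 and 75.0 CPM, each below the level in the other kept cells of the same library. T cell genes gave 1.7, 4.9 and 12.0 CPM and macrophage genes 2.6, 0.6 and 1.0 CPM. The plasmacytoid dendritic list, which holds Bst2, gave 58.3, 82.6 and 543.5 CPM, the last above the 385.1 CPM of the other kept cells.

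Members were divided by 27 genes of the cell cycle, by 6 precursor genes (Igll1, Vpreb1, Vpreb2, Dntt, Rag1 and Rag2) and by Jchain, which joins IgA or IgM into polymers. A cell was secretory with at least 10 UMIs and 0.1% of UMIs from Jchain, dividing with at least 3 UMIs and 0.2% from the cycle genes, and a precursor with at least 2 UMIs of the precursor genes. The remaining cells, with neither, were called resting. These genes are therefore not findings between the classes.

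The make-up of the B lineage was unlike at the 2 ages. At P10, dividing precursors were 21 of 82 B lineage cells in the control (25.6%, 16.6 to 36.4%) and 31 of 85 in the mutant (36.5%, 26.3 to 47.6%), and the intervals overlap. At 3 months 0 of 126 cells were dividing precursors, which allows a share of up to 2.38%. Resting B cells were 36 cells of the control (43.9%), 30 of the mutant (35.3%) and 30 at 3 months (23.8%). Secretory cells were 0 of 82 in the control, 1 of 85 in the mutant and 96 of 126 at 3 months (76.2%, 67.8 to 83.3%). The remaining P10 cells were 14 and 11 non-dividing precursors and 11 and 12 dividing cells below the precursor limit. No cell at 3 months fell in either of these classes. Of the secretory cells at 3 months, 3 also met the limit for dividing cells and 0 that for precursors.

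**Figure D1:**
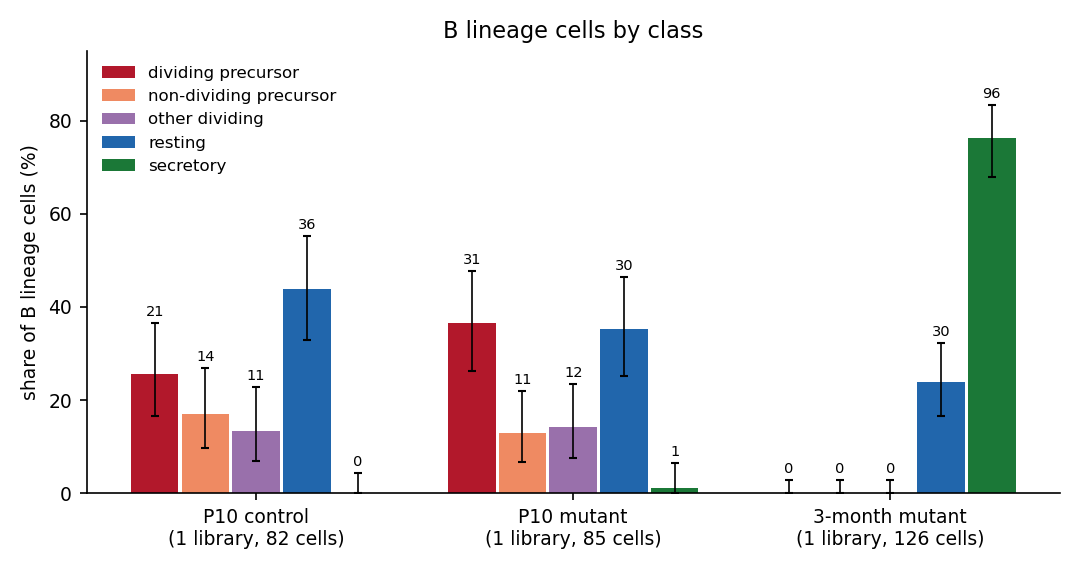
Share of B lineage cells in each class (vertical axis, %) for the P10 control, P10 mutant and 3-month mutant libraries, 1 library each. The classes stand side by side with exact Clopper-Pearson intervals, and the numbers of cells are printed above the bars. Dividing precursors made up 21 and 31 cells at P10 and 0 at 3 months, where 96 of 126 cells were secretory.

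The classes differed in depth as well. Dividing precursors had a median of 29992 and 34851 UMIs in the P10 control and mutant, resting B cells 4735 and 4872.5, and non-dividing precursors 3871.5 and 5027. Secretory cells at 3 months had 27000.5 and resting cells 4380.5. With each cell thinned to 2000 UMIs, dividing precursors were 17.1% and 21.2% of the P10 cells and resting cells 43.9% and 42.4%. With the mitochondrial limit of the study, 5%, only 8 control and 1 mutant P10 resting cells with a light chain were left. Dividing precursors were then 54.8% of the control's and 70.8% of the mutant's remaining B lineage cells. At the main limit, mitochondrial genes took a median of 6.97% and 7.09% of UMIs in resting cells of the P10 control and mutant. In their dividing precursors these genes took 4.07% and 4.95%.

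In the P10 dividing precursors the surrogate light chain genes were among the defining transcripts, and their levels are given as a description. Igll1 stood at 593.8 CPM in the control and 490.3 CPM in the mutant, Vpreb1 at 899.0 and 626.5, and Vpreb2 at 199.4 and 107.1. In non-dividing precursors Igll1 stood at 1176 and 758.9 CPM and Vpreb1 at 2086 and 1232. The limit of 2 UMIs weighs more in these shallower cells, so that no difference between the precursor classes is read from its genes. Igll1 had 0 UMIs in the 126 B lineage cells at 3 months, which allows up to 1.03 CPM. Vpreb3, whose product is a partner of the heavy chain in the endoplasmic reticulum and which the class rules did not use, was not limited to precursors. It gave 1177 and 957.4 CPM in dividing precursors and 1433 and 1039 CPM in resting B cells of the control and the mutant.

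The dividing precursors varied in their light chain transcripts. Here a light chain was counted with at least 5 UMIs of Igkc and Iglc1 to Iglc3, and a surrogate light chain with at least 10 UMIs of Igll1, Vpreb1 and Vpreb2 together, a limit chosen after the values had been seen. Both limits are UMI counts, while dividing precursors held 2256 to 58145 UMIs per cell in the control and 4833 to 99587 in the mutant. How far the split follows depth was not tested. The surrogate genes gave 1 to 146 UMIs per dividing precursor in the control (median 42) and 0 to 144 in the mutant (median 42). At the limit, 17 of 21 and 21 of 31 dividing precursors had the surrogate light chain, and of these 14 and 12 had no light chain while 3 and 9 had it. The remaining 4 and 10 cells, some of which met the precursor limit only with UMIs of Rag1 and Rag2, all had a light chain. The median was 33.5 and 19.5 light chain UMIs in these cells, against 0 and 1 in those with the surrogate. Every dividing precursor with a light chain, 7 in the control and 19 in the mutant, was of the kappa kind, with at least 80% of those UMIs from Igkc.

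**Figure D2:**
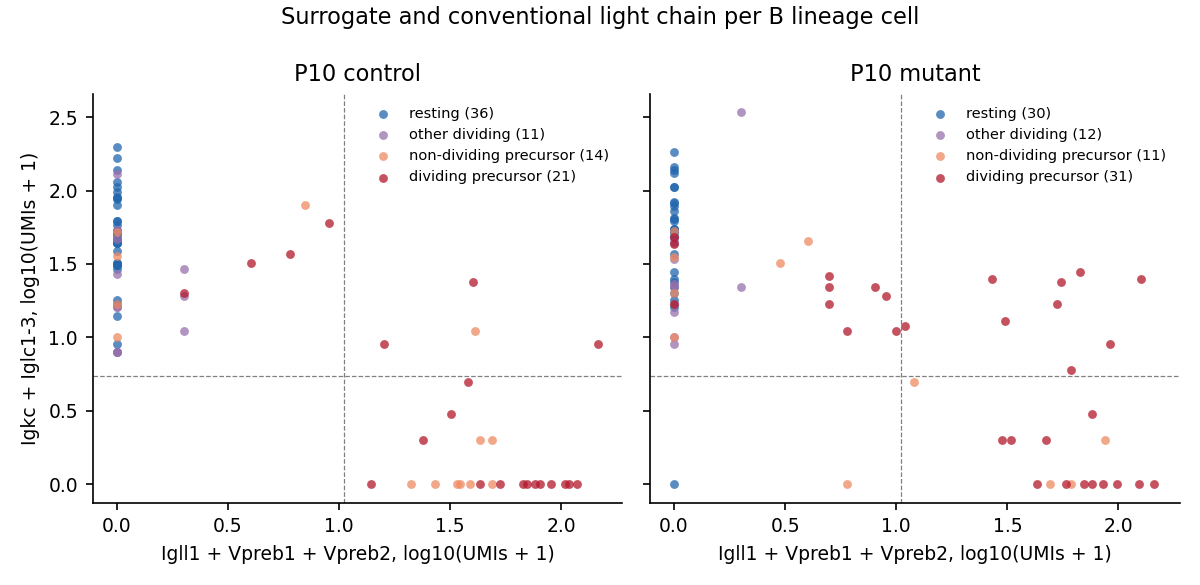
UMIs of the surrogate light chain genes (horizontal axis) against UMIs of the light chain constant genes (vertical axis) in each P10 B lineage cell outside the secretory class, on log10(UMIs + 1) axes, with 1 panel per library and colours for the classes. Dividing precursors run from cells with up to 146 surrogate and few light chain UMIs to cells with few surrogate and many light chain UMIs, and resting B cells lie at the light chain end.

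Dntt, with at least 2 UMIs, marked 11 of 21 dividing precursors in the control and 6 of 31 in the mutant. All of these had the surrogate light chain and 0 had a light chain. Rag1 and Rag2, with at least 2 UMIs together, were found in 6 of 21 and 4 of 31. Among non-dividing precursors they were found in 8 of 14 and 7 of 11. Some cells of both classes met the precursor limit only with UMIs of Rag1 and Rag2, so that these shares are not independent of the rule. Ighm was present in every dividing precursor, with a median of 40 UMIs per cell in the control and 49 in the mutant. Transcripts of this constant gene therefore accompanied both the cells with and the cells without light chain UMIs. Counts of constant genes do not show whether the segments of a chain had been joined. Heavy chain variable genes gave 8 and 10 UMIs over the dividing precursors of the control and the mutant, and led in 0 cells. A kappa variable gene led in 1 cell of each library.

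Dividing precursors were then set against resting B cells of the same library, over genes that neither rule used. Of 2409 genes with at least 50 UMIs in both classes together in each P10 library, 338 (14%) were at least 2-fold higher in dividing precursors in both libraries and 209 (8.68%) at least 2-fold lower. Of all 15 gene lists, DNA replication stood farthest above the other genes. All 11 of its measured genes were higher, with median log2 ratios of 3.98 in the control and 3.42 in the mutant, where the medians over all tested genes were 0.17 and 0.34. Cell cycle genes chose the class, so that replication genes are not independent of the rule. Mcm3, a subunit of the replicative helicase, stood at 234.2 and 245.1 CPM in dividing precursors of the control and the mutant, 11.1-fold (4.68 to 34.8) and 16.2-fold (5.49 to 79.0) above resting cells. Pcna, the sliding clamp of DNA polymerase, was 6.58-fold (4.04 to 11.4) and 8.85-fold (5.03 to 17.2) higher. Lig1, which joins replicated fragments, was 46.4-fold higher in the control, against a single UMI in resting cells. Gmnn, the licensing inhibitor geminin, held 0 UMIs in the resting cells of the mutant. Tuba1b, an α-tubulin, was 26.1-fold (15.7 to 46.8) and 40.7-fold (19.7 to 101) higher, and the linker histone gene Hist1h1b 15.3-fold and 17.7-fold higher. Dut and Stmn1, for a dUTPase and a regulator of microtubules, were 8.77-fold to 12.1-fold higher.

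Genes of cell growth were higher too. Of 5 measured genes of growth and Myc targets, 4 were past 2-fold higher and none lower. Npm1, a nucleolar protein of ribosome assembly, stood at 3251 and 4030 CPM in dividing precursors against 714.2 and 947.9 CPM in resting cells (4.55-fold, 3.89 to 5.35, and 4.25-fold, 3.67 to 4.95). Ncl, nucleolin, was 2.91-fold and 3.89-fold higher, and Ldha, lactate dehydrogenase, 2.86-fold and 7.62-fold. Nme1 was the remaining gene past the limit.

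The antigen presentation genes were at the other end. All 4 measured MHC class II genes were lower in dividing precursors, with median log2 ratios of -6.18 and -4.52. Cd74, the invariant chain, stood at 51.4 and 138.8 CPM in dividing precursors of the control and the mutant and at 6385 and 5219 CPM in resting cells. H2-Aa stood at 12.1 and 42.0 CPM against 924.2 and 877.3 CPM. Of 6 measured genes of mature B cells, 5 were lower, namely Ms4a1, Tnfrsf13c, Fcrla, Cd37 and Ltb. Ms4a1 stood at 9.07 and 6.86 CPM in dividing precursors against 907.4 and 544.5 CPM in resting cells, or 0.00999 times (0.00363 to 0.0221) and 0.0126 times (0.00530 to 0.0257) the resting level. Ly6d, a surface protein of B lineage cells, was 0.0623 and 0.0242 times, and Ifi30, a lysosomal thiol reductase of antigen processing, 0.0426 and 0.0494 times the resting level.

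**Figure D3:**
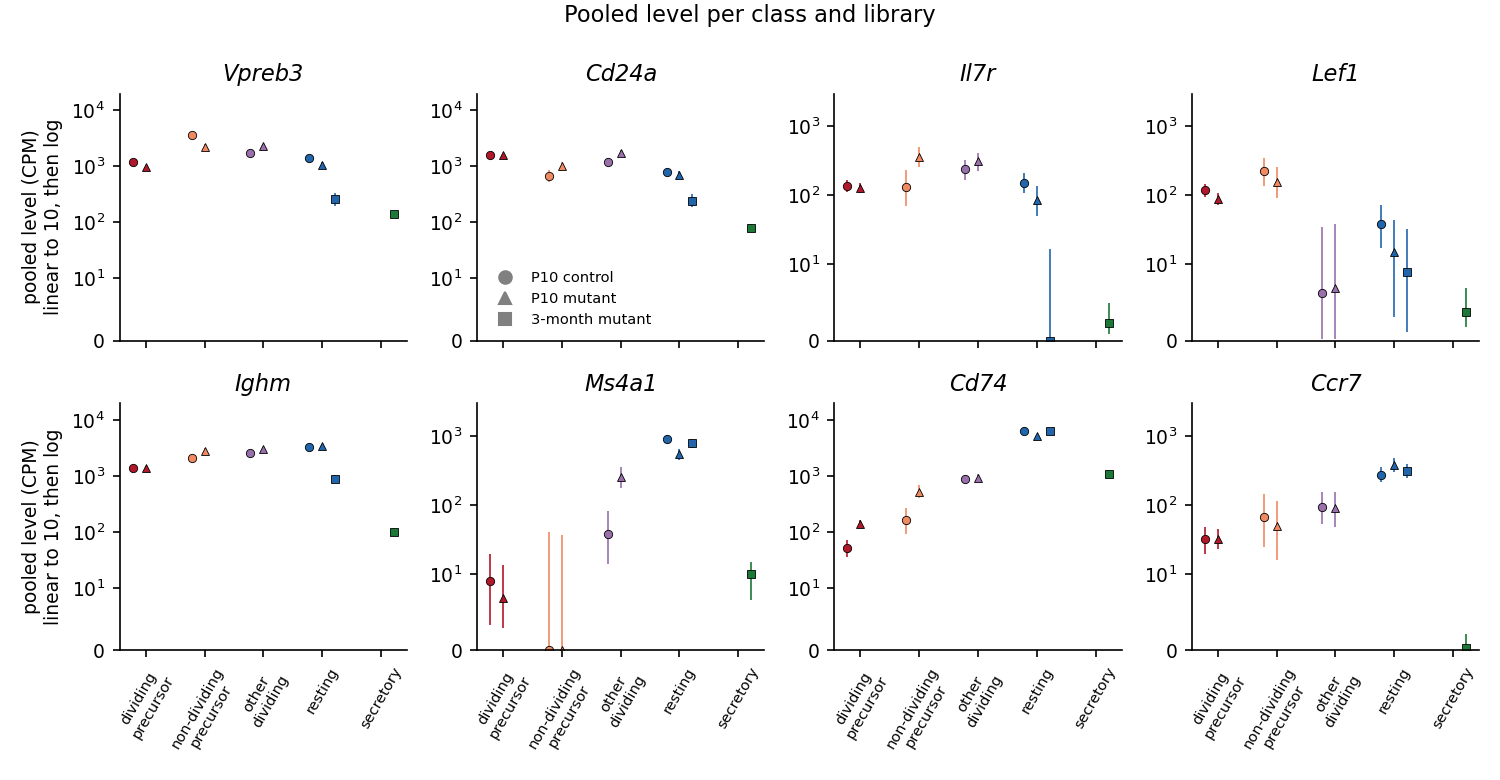
Level in CPM of Vpreb3, Cd24a, Il7r, Lef1, Ighm, Ms4a1, Cd74 and Ccr7 in the B lineage classes of the 3 libraries, with exact Poisson 95% intervals as bars. The axis is linear at low levels and logarithmic above. At P10, Ms4a1 and Cd74 stand at 6.86 to 138.8 CPM in dividing precursors and at 544.5 to 6385 CPM in resting cells.

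As a share of UMIs, antigen receptor genes were mostly lower in the precursors. Of 8 measured genes of the receptor and its co-receptors, 6 were lower and none higher. Igkc stood at 284.0 and 326.6 CPM in dividing precursors against 6675 and 6993 CPM in resting cells, and Ighm at 1413 and 1421 CPM against 3386 and 3454 CPM. Per cell, the median of Ighm was 40 and 49 UMIs in the deeper dividing precursors and 21.5 and 20 UMIs in resting cells. Iglc2 held 0 UMIs in the dividing precursors of both libraries, which allows up to 4.53 and 2.57 CPM, against 579.7 and 892.4 CPM in resting cells. Of 6 signalling genes, Syk (0.311 and 0.254 times), Lyn (0.316 and 0.325 times) and Ralgps2 were lower. Syk and Lyn encode tyrosine kinases next to the receptor.

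Of 16 measured transcription factors of the B lineage, 1 was higher and 4 lower in dividing precursors. Lef1, a Wnt pathway factor of early B cells, was 3.12-fold (1.56 to 7.07) and 5.89-fold higher. Spib was 0.169 and 0.117 times, and Klf2, a factor of quiescent lymphocytes, 0.214 and 0.120 times the resting level, and Ikzf3 and Pou2f2 were the other two. The lineage factors did not pass in both libraries: Ebf1 stood at 0.613 and 0.515 times and Pax5 at 0.725 and 0.381 times the resting level. Of 6 precursor surface genes only Cd9 passed the limit, and it was lower. Il7r, the receptor chain for the growth factor interleukin 7, stood at 137.5 and 128.6 CPM in dividing precursors and 151.2 and 85.7 CPM in resting cells, with ratios of 0.909 (0.612 to 1.38) and 1.50 (0.906 to 2.64) that both include 1. Cd24a was 1.96-fold and 2.27-fold higher.

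Smaller lists gave few measured genes. Of 3 homing receptors Cxcr4 and Ccr7 were lower, of 3 activation genes Egr1 and Nr4a1 were lower, and of 2 interferon genes Ifi27l2a was lower. Of 8 immediate early and stress genes 5 were lower (Fos, Jun, Junb, Ier2 and Dusp1) and Hspa1b was higher. Fos and Dusp1 did not pass in the control without cells carrying markers of another type, with ratios of 0.537 and 0.573. The list of fetal-type genes had no measured member, the list of B-1 genes had only Cd9, and the secretion list had 1 gene, which did not pass.

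Dividing cells below the precursor limit had 0 or 1 UMI of the surrogate genes, which the limit itself fixes. All 11 in the control and 12 in the mutant had a light chain, which was kappa in 10 and 11. Their Cd74 level, 872.5 and 936.8 CPM, was above that of dividing precursors and below that of resting cells. Ms4a1 had 6 UMIs in the control, in 2 of 11 cells, and 37 UMIs in the mutant, all in 1 of 12 cells. Il7r stood at 238.5 and 310.0 CPM, and Lef1 at 6.28 and 6.89 CPM against 117.8 and 89.1 CPM in dividing precursors. Of the 4 P10 classes, non-dividing precursors had the highest levels of Ebf1 (3063 and 2553 CPM) and of Sox4, a factor of progenitors (1365 and 660.3 CPM). They had Vpreb3 at 3629 and 2188 CPM and 0 UMIs of Ms4a1 in either library.

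The 2 libraries of P10 are the comparison of genotypes. In resting B cells, 35 of 1230 genes (2.85%) were at least 2-fold higher and 96 (7.8%) at least 2-fold lower in the mutant than in the control. None of the measured receptor, signalling, transcription factor, mature B cell or MHC class II genes was among them. Most of these genes rested on single cells: 26 of the 35 higher genes and 82 of the 96 lower ones had over 25% of the UMIs of the higher library in 1 cell. They include genes typical of other cell types. Lcn11, a lipocalin, had 4950 UMIs in the mutant, all in 1 cell, against 3 in the control. The neutrophil gene S100a8 had 157 against 3 UMIs, with 95.5% of the mutant's in 1 cell. Among the lower genes, the contractile genes Myl9 (4 against 177 UMIs) and Tpm2 (3 against 193) had 94.4% and 94.3% of the control's UMIs in 1 cell, and the neuronal gene Stmn2 (1 against 59) had 86.4%. Without the 3 mutant and 2 control cells that carried markers of another type, 21 genes were higher and 80 lower of 984, of which 8 and 62 had been called with them. S1pr1, a receptor for exit from tissues, was 2.47-fold higher (1.37 to 4.60), and Ifi27l2a was 3.23-fold higher with 28.8% of the mutant's UMIs in 1 cell. Both passed without those cells as well.

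In dividing precursors, 93 of 4208 genes (2.21%) were at least 2-fold higher and 36 (0.856%) at least 2-fold lower in the mutant. Of the higher genes 47, and of the lower 15, had over 25% of the UMIs of the higher library in 1 cell. Of 4 MHC class II genes 3 were higher: Cd74 was 2.70-fold (1.86 to 4.04), H2-Aa 3.47-fold and H2-Eb1 3.19-fold higher, while H2-Ab1 was 1.10-fold. A single cell held 51.9% of the mutant's Cd74 UMIs and 51.1% of those of H2-Eb1. Without the 2 mutant cells that carried markers of another type, the ratio of Cd74 was 1.43 and did not pass, and those of H2-Aa and H2-Eb1 were 2.44 and 2.36 with too few UMIs to be counted. Dntt, a gene of the class rule, was 0.401 times (0.316 to 0.507) the control level. Cd22, an inhibitory co-receptor, was 3.97-fold higher, and none of 15 replication genes, 10 signalling genes or 17 transcription factors passed the limit.

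In pooled counts, resting B cells at 3 months differed from those at P10 in receptor and lineage genes. The class is the remainder after the other rules, so its mix of immature and mature cells may differ between the ages. With each cell thinned to 2000 UMIs, Ms4a1 was found in 21 of 36 resting cells of the P10 control and 17 of 30 of the P10 mutant. At 3 months it was found in 22 of 29. How far such a mix enters the differences was not tested. Over both ratios, to the P10 mutant and to the P10 control, 70 of 1035 genes (6.76%) were at least 2-fold higher and 71 (6.86%) at least 2-fold lower at 3 months. With the mean over cells in place of pooled counts, 63 were higher and 77 lower. Pooled levels weigh deep cells more. Resting cells held up to 48118 UMIs at 3 months, 34061 in the P10 mutant and 32078 in the control. In these deepest cells immunoglobulin genes took 0.227%, 0.00294% and 0.159% of UMIs, against class medians of 0.985%, 1.55% and 1.42%. How far such cells set the ratios was not tested. Ighm stood at 898.9 CPM against 3454 CPM in the P10 mutant and 3386 CPM in the P10 control, or 0.260 times (0.221 to 0.305) and 0.265 times (0.226 to 0.310). Vpreb3 stood at 258.1 CPM against 1039 and 1433 CPM. Cd24a, which is high on immature B cells, stood at 244.8 CPM against 695.8 and 802.4 CPM. Il7r held 0 UMIs against 17 and 36, a ratio of 0.156 and 0.0883 if 3 counts are allowed for the 0. Of 4 measured precursor surface genes Cd24a and Vpreb3 were lower at 3 months, and Cd93, another marker of immature B cells, was 6.47-fold and 3.59-fold higher with 97.7% of its 3-month UMIs in 1 cell.

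Of 8 measured transcription factors, 4 were lower and none higher at 3 months. Tcf3, an E protein, was 0.164 and 0.177 times the level of the P10 mutant and control, Spib 0.262 and 0.248 times, Pax5 0.358 and 0.497 times and Sox4 0.406 and 0.353 times. The median log2 ratio of the list was -1.05 and -0.93, against -0.01 and -0.10 over all genes. Of 6 signalling genes Syk (0.284 and 0.387 times) and Blnk, the adaptor of the receptor (0.266 and 0.319 times), were lower. Beyond the lists, Arl5c (0.0753 and 0.0687 times), Tifa (0.104 and 0.0935 times), Dusp2, a nuclear phosphatase of MAP kinases (0.183 and 0.155 times), and Siglecg, an inhibitory lectin (0.180 and 0.147 times), were among the 10 genes named by the size of their ratio, with Ighm, Vpreb3, Fam129c, Gm43305, Lrmp and Pafah1b3.

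Of 10 measured mature B cell genes, 2 were higher and 1 lower. Gpr183, a receptor for oxysterols that guides B cells in follicles, stood at 204.7 CPM against 70.6 and 71.4 CPM, and Cd55 was 2.01-fold and 2.18-fold higher, while Fcrla was lower. Without cells carrying markers of another type the ratios of Cd55 were 1.28 and 1.68 and did not pass. Ms4a1 stood at 783.2 CPM against 544.5 and 907.4 CPM and did not pass. Ighd, the constant region of IgD, stood at 204.7 CPM against 126.1 and 96.6 CPM, with ratios of 1.62 and 2.12. Of 7 MHC class II genes only H2-Aa passed, at 2176 CPM against 877.3 and 924.2 CPM, and it was also higher in the other kept cells at 3 months, at 1701 CPM against 531.0 and 369.8 CPM. Hist1h1e, a linker histone, was 7.54-fold (4.23 to 14.6) and 9.05-fold (5.08 to 17.5) higher. Of 8 immediate early and stress genes Dusp1, Hspa1a and Hspa1b were higher, and of 2 interferon genes Bst2 was. A single cell held 65.8% of the 3-month UMIs of Hspa1a, 63.1% of those of Hspa1b and 65.3% of those of Bst2. No homing receptor (3 measured), activation gene (4) or growth gene (5) passed in either direction.

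Among resting B cells with a light chain, kappa cells were 21 of 36 in the P10 control (58.3%, 40.8 to 74.5%), 17 of 29 in the P10 mutant (58.6%, 38.9 to 76.5%) and 8 of 30 at 3 months (26.7%, 12.3 to 45.9%). Lambda cells were 4, 3 and 2, and 11, 9 and 20 cells had neither kind at 80% or more. With 90% in place of 80%, kappa cells were 36.1% and 37.9% at P10 and 13.3% at 3 months. Light chain transcripts outside B lineage cells differed between the libraries. Igkc stood at 2.50 and 3.57 CPM in the other kept cells at P10, and at 464.4 CPM at 3 months once the cells over the Jchain limit were set aside, where 90.4% of those cells had a UMI. The resting B cells of 3 months held 3996 CPM. They also held 81 UMIs of Igha in 19 of 30 cells (360.5 CPM), against 112.9 CPM and 58.9% of the other kept cells without those over the Jchain limit, and 25.9% of these UMIs lay in 1 cell. Jchain stood at 49.0 CPM in resting B cells and at 42.8 CPM in the same other cells, and the class limit caps its level in resting B cells. How far free RNA enters the light chain calls at 3 months was not tested.

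Secretory cells were the main B lineage class at 3 months, and the class and its comparisons were chosen with its values in view. Immunoglobulin genes took a median of 60.7% of their UMIs, against 0.985% in resting B cells of the same library, and Jchain a median of 5.27%. Igkc alone stood at 433536 CPM. Because these genes took most of the UMIs, the classes were compared in CPM of the UMIs outside 392 immunoglobulin genes. Of 2670 genes, 399 (14.9%) were at least 2-fold higher and 540 (20.2%) at least 2-fold lower in secretory than in resting cells at 3 months. With all UMIs in the total, the split was 205 higher and 1806 lower.

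All 5 measured genes of antibody secretion outside the immunoglobulin loci were higher. Xbp1, a factor of the secretory apparatus, stood at 2098 against 26.9 CPM (78.0-fold, 35.8 to 213). Mzb1, an endoplasmic reticulum protein of antibody assembly, was 14.1-fold (11.1 to 18.1), Sdc1, the plasma cell surface marker CD138, 32.7-fold and Prdm1, the master regulator of plasma cells, 5.58-fold higher. Tnfrsf17, the survival receptor BCMA, held 0 UMIs in resting cells, and the lower bound of its interval was 15.5-fold higher. Txndc5, Ssr4 and Derl3, of protein folding, translocation and degradation at the endoplasmic reticulum, were 29.6-fold, 20.1-fold and 45.3-fold higher. Ly6c2 stood at 1985 CPM against a single UMI in resting cells.

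All 6 measured MHC class II genes and 7 of 10 mature B cell genes were lower. H2-Aa was 0.0482 times (0.0392 to 0.0589), Ms4a1 0.0297 times (0.0190 to 0.0447), Fcmr, the IgM Fc receptor, 0.00358 times and Ccr7, a receptor for lymph node entry, 0.00276 times the resting level. Ebf1 was 0.0623 times (0.0477 to 0.0808), and Pax5 held 0 UMIs, a ratio of at most 0.0193. Of 9 transcription factors 5 were lower, and Pou2af1 (6.34-fold) and Irf4 (2.23-fold), both used by plasma cells, were higher. Cd74 kept 0.395 times the resting level. Dividing precursors and secretory cells thus both lay below resting cells in MHC class II and Ms4a1, each within its own library and age.

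**Figure D4:**
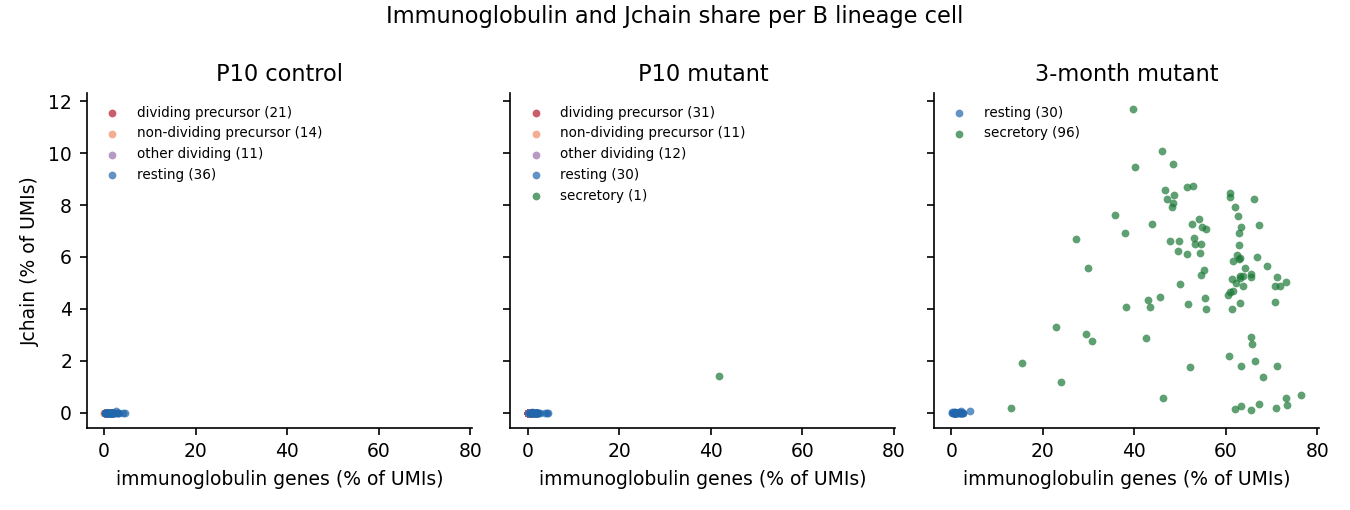
Immunoglobulin genes (horizontal axis, % of UMIs) against Jchain (vertical axis, % of UMIs) in each B lineage cell, with 1 panel per library and colours for the classes. At 3 months, immunoglobulin genes took a median of 60.7% of UMIs in secretory cells and 0.985% in resting cells. Jchain took a median of 5.27% in the secretory cells.

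The secretory cells had mostly switched to IgA. By the heavy chain constant gene that held at least 80% of such UMIs, 73 of 96 cells at 3 months were led by Igha (76.0%, 66.2 to 84.2%), 13 by Ighg2c, 6 by Ighg2b and 3 by Ighg1, and 1 was mixed. A median of 2725.5 heavy chain UMIs per cell stood behind these calls. No cell was led by Ighm. By light chain, 92 of 96 were kappa (95.8%, 89.7 to 98.9%) and 2 were lambda. The single secretory cell of the P10 mutant had 34004 UMIs, 41.7% of them from immunoglobulin genes, and was led by Ighm. At P10 the resting cells were led by Ighm as well, in 34 of 36 cells of the control and 26 of 30 of the mutant.

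The variable genes of the secretory cells were diverse. A kappa variable gene led with at least 60% of such UMIs in 92 cells, over 43 different genes of 160 in the files, and 24 genes led in 1 cell only. A heavy chain variable gene led in 91 cells, over 39 genes of 185. Ighv1-26 led in 13 cells and Ighv3-6 in 11, and Igkv3-10 in 8. The 88 cells with both leaders held 62 different pairs. Of these, 12 pairs recurred in at least 2 cells and held 38 cells, and in 11 of the 12 all cells were led by a single isotype. The most frequent pair, Ighv3-6 with Igkv3-10, was found in 8 cells, all led by Ighg2c. Ighv1-26 with Igkv4-68 was found in 6 cells, all led by Igha. The exception, Ighv14-2 with Igkv17-121, had 4 cells led by Igha and 1 by Ighg2b. Many variable genes are near copies of one another, so that reads can be split or misassigned between them. The junctions of the segments were not read, and shared pairs do not establish clones.

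The cells led by Igha were set beside those led by an Ighg gene, a comparison chosen after the values had been seen and given as levels only. The median depth was 26003 UMIs in 73 Igha cells and 29919 in 22 Ighg cells. Ccr10, a chemokine receptor of IgA plasma cells at mucosal surfaces, stood at 350 CPM outside immunoglobulin genes in Igha cells and 42.8 CPM in Ighg cells (8.18-fold, 4.62 to 16.0). It was found in 61 of 73 Igha cells (83.6%) and 5 of 22 Ighg cells (22.7%). Itgb7, a chain of the gut homing integrin, stood at 59.7 CPM against 1 UMI, a ratio of 16.8 (2.87 to 674). Ctla4 was 5.34-fold (2.63 to 12.6), Tnfrsf17 3.56-fold, the surface antigen gene Cd52 8.56-fold and Jchain, a gene of the class rule, 2.48-fold higher in Igha cells. Cxcr4, a receptor for retention in the bone marrow, was 0.117 times (0.0331 to 0.345) the level in Ighg cells, from 5 against 14 UMIs. Ly6c2 was 0.221 times that level, and 1 cell held 34.8% of its UMIs in Ighg cells. The 8 Ighg cells with the pair of Ighv3-6 and Igkv3-10 held 16 to 474 UMIs of Ly6c2 each. How far these 8 cells set the ratios of this comparison was not tested. Mzb1 stood at 4428 and 4381 CPM, a ratio of 1.01, and Xbp1 at 1839 and 2994 CPM.

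**Figure D5:**
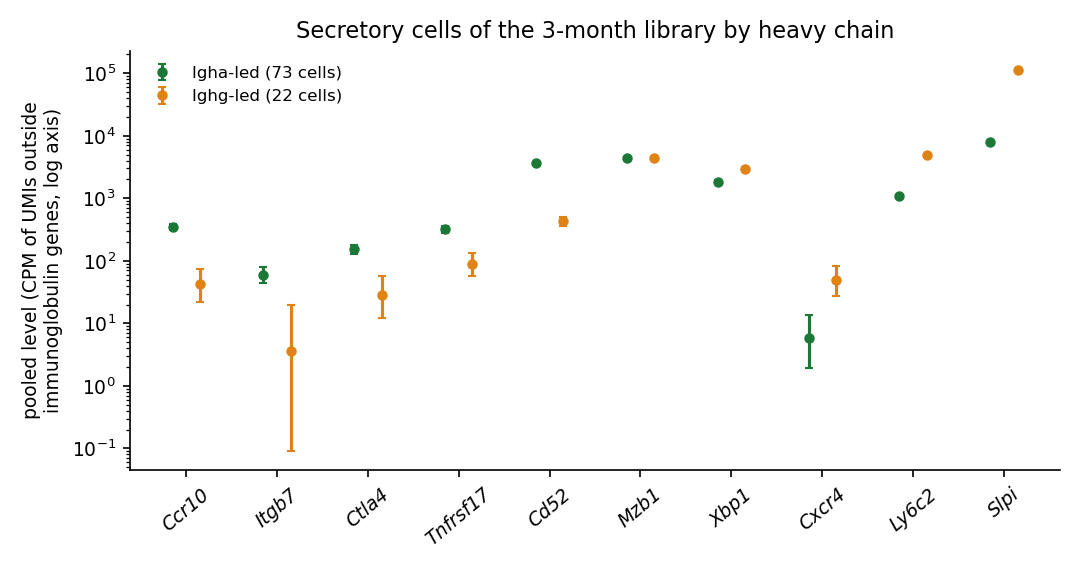
Level in CPM of UMIs outside the immunoglobulin genes (logarithmic axis) in secretory cells of the 3-month library led by Igha (73 cells) or by an Ighg gene (22 cells), with exact Poisson 95% intervals. Ccr10 stood at 350 and 42.8 CPM and Slpi at 7981 and 112310 CPM, while Mzb1 was level at 4428 and 4381 CPM.

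Slpi, which encodes a secreted inhibitor of leukocyte proteases made by mucosal epithelia, was a transcript of the secretory cells and was picked out after its values had been seen. It had a UMI in 92 of 96 cells and stood at 14289 CPM of all UMIs, against 44.5 CPM in resting B cells at 3 months (6 of 30 cells) and 91.1 CPM in the other kept cells of that library. Its distribution was uneven, with a median of 57.5 UMIs and a maximum of 9719. Of the 12 cells with more than 500 UMIs of Slpi, 8 were the cells with the pair of Ighv3-6 and Igkv3-10. All 8 of these had 1719 to 9719 UMIs, with a median of 2308.5. Slpi outside immunoglobulin genes therefore stood at 112310 CPM in Ighg cells against 7981 CPM in Igha cells, a ratio of Igha over Ighg of 0.0711 (0.0692 to 0.0730), and the Ighg value rests largely on these 8 cells.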

How the data were processed

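Frozen, papain-dissociated VNO suspensions were profiled with 10x Genomics 3′ chemistry. Per the file headers the authors made the deposited values, whole UMI counts per gene and barcode, with Cell Ranger 4.0.0 (P10) and 6.0.1 (3 months), and per the study's methods reads were aligned to mm10. Totals were 70074800 to 83870584 UMIs per library.

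Barcodes with 200 to 9000 genes, at least 1000 UMIs and at most 10% mitochondrial UMIs were kept. Members and gene lists were chosen with earlier results of these data known. Counts were pooled per class and library and given as CPM with exact Poisson intervals. Ratios have conditional exact binomial and shares exact Clopper-Pearson 95% intervals. A count of 0 was taken to allow 3 counts. A gene passed with at least 50 UMIs and a ratio of at least 2, or at most 0.5, in each ratio of a comparison. Genes of the lists could be named, and beyond them the 10 per direction with the largest smaller bound of the ratio, without a cell holding over 25% of the UMIs. Between libraries, such a gene also had to stand at least at the level of the other kept cells. S100a8, Lcn11, Myl9, Tpm2, Stmn2, Ccr10, Slpi, the variable gene pairs and the Igha comparison were picked after their values were seen. No doublet caller was run and free RNA was not corrected. Ratios were tested on simulated data. Thinning took 1 seeded draw to 2000 UMIs. Python 3.11.15, numpy 2.4.6, scipy 1.17.1 and pandas 2.3.3 were used. Alternatives changed the filters, class limits, count minimum and pooling.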

Additional observations from a re-analysis of the deposited data

Results flagged for a closer look

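At 3 months, 62 kept cells met the Jchain limit of the secretory class but were not counted as B lineage cells, a signal in cells that no comparison here uses. Of these, 59 had fewer than 5 UMIs of Cd79a and Cd79b, and their median was 5038 UMIs per cell, against 27000.5 in the secretory cells that were counted. By leading heavy chain gene, 39 were Igha cells, 18 Ighg2c, 2 Ighm and 1 Ighg2b, and 2 were mixed. Slpi stood at 10462 CPM in them and at 14289 CPM in the counted secretory cells. The rule through Cd79a and Cd79b therefore counts fewer cells than Jchain alone would at 3 months.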

How the results depend on the processing

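Of 141 alternative values, 119 lay within the counting interval of the main share or within 1.5 times the main count, and 22 did not. The cause was not tested. With a minimum of 20 UMIs per gene instead of 50, dividing precursors had 596 genes higher and 476 lower than resting cells, and with 200 UMIs 114 and 39. For 3-month against P10 resting cells the counts were 185 and 198 at 20 UMIs and 19 and 4 at 200, and for secretory against resting cells 693 and 1583, and 167 and 84, since each minimum changes the number of genes tested. With all UMIs in the total, 205 genes were higher and 1806 lower in secretory cells. With 90% of light chain UMIs, kappa cells were 36.1% (control) and 37.9% (mutant) of P10 resting cells and 13.3% at 3 months, within the wide interval of the main 26.7%. At the mitochondrial limit of 5%, dividing precursors were 54.8% (control) and 70.8% (mutant), secretory cells were 87% of the B lineage cells at 3 months, which were 3.07% of kept cells, the mutant's secretory share was 4.17% (1 cell), and the 1 resting mutant P10 cell left was kappa (100%). Comparisons with that class could then give no value. Thinned to 2000 UMIs, dividing precursors were 21.2% of the mutant's cells. No paired analysis was possible because each group has 1 library, and for the same reason no library could be left out. The resting classes hold 30 to 36 cells, which limits what can be seen of weakly expressed genes.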
